A study of Homo sapiens with 6 samples.

Results

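The set described here holds 34 genes of the integrated stress response, namely ATF4, its transcription partners, the feedback and stress genes it drives, and the amino acid enzymes and transporters under its control. They were chosen by symbol, and all 34 were found by NCBI Gene ID among the 25702 identifiers of the count files. Every member passed the low-count filter that left 15431 genes for testing. The cells were K562, an established BCR-ABL1-positive human leukemia line with erythroid features. Each group was 2 RNA-seq libraries, from independent transfections, of cells transfected with the HA-tag plasmid pCMV-HA, which all 3 groups share. The plasmid was empty in the first group (EV), carried full-length MXD3 in the second, and carried the leukemia fusion STIM1::MXD3 in the third. Total RNA was taken from whole transfected cultures of this one line, so transfected and untransfected cells were measured together. The design asks how MXD3 and its fusion product change transcript levels against EV and against each other.

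When cells lack amino acids, face misfolded proteins or suffer mitochondrial stress, kinases phosphorylate the translation factor eIF2. General translation then slows while the ATF4 messenger is translated more, so that ATF4 activity is set largely by translation and its transcript level is only part of the picture. ATF4 pairs with C/EBP-family proteins on promoters of genes for amino acid uptake, serine and one-carbon synthesis and redox balance, and it also induces its own brakes. MXD3 is a basic helix-loop-helix protein that pairs with MAX on E-box sequences and opposes MYC, and MYC and ATF4 are both known for driving amino acid genes in leukemia cells.

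The promoter sequences below show these binding letters in members whose values follow. RefSeq promoter windows (GRCh38.p14, 250 bases before to 50 after the start) matched 26 of the 34 genes. The C/EBP-ATF response element was searched as TGATGNAA and the E-box as CACGTG, both on either strand, and no member held both. The response element was present in 4 of 26 members (15.4%), against 3.67% of all 27305 promoters and 1.87% of those of genes tested here. The E-box was present in 3 of 26 (11.5%), against 7.43% of all promoters and 9.96% of those of genes tested here. Each line runs 5′ to 3′ on the strand of the gene, and capitals mark the match.
ASNS, response element, chr7:97872443-97872502, minus strand: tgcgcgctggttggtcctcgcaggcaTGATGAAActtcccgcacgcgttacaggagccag
CHAC1, response element read on the opposite strand, chr15:40953236-40953295, plus strand: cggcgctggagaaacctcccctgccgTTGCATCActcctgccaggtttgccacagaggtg
ATF4, E-box, chr22:39520451-39520508, plus strand: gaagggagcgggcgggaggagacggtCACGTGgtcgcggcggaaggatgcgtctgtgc
SLC7A5, E-box, chr16:87869606-87869663, minus strand: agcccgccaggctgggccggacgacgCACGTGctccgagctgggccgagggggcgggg
ALDH18A1, E-box, chr10:95656816-95656873, minus strand: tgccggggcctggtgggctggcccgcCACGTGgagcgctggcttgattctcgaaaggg
The matches lay 68 bases before the start in ASNS, 209 in CHAC1, 82 in ATF4, 130 in SLC7A5 and 136 in ALDH18A1. SLC3A2 and SLC7A1 held the response element just after the start.

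Library totals ran from 53048343 to 63835779 counts, and levels are given as CPM, the count relative to a library total scaled by edgeR's trimmed mean of M values. The plasmids were visible in the transcripts. MXD3 stood at 9.33 and 11.7 CPM in EV against 1849 to 2523 CPM in the other 4 libraries, and STIM1 stood at 453 and 471 CPM with the fusion against 159 to 205 CPM elsewhere. All 9 erythroid markers of the line were expressed, with a summed level of 6943 to 9718 CPM. Of 8 markers of other cell types, MS4A1 and CDH5 were at 0 in all libraries and 4 reached 1 CPM, with EPCAM at 77.9 to 101 CPM and LYZ at 21.2 to 27.0 CPM. In such bulk RNA, fewer cells with a transcript and less transcript per cell cannot be told apart.

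In EV, the levels of the members spread widely. Per kilobase of annotated exon (hg19, GENCODE v44lift37), the stress cytokine gene GDF15 was the most abundant at 441 CPM per kilobase. The transcription factor genes ATF5 (257) and ATF4 (196), the mTOR inhibitor gene DDIT4 (193), the glutamine transporter gene SLC1A5 (175) and the asparagine synthetase gene ASNS (174) followed on the same scale. SLC7A11 (6.89), NUPR1 (5.42), CHAC1 (5.16), GPT2 (4.19) and the lipoprotein receptor gene VLDLR (0.0760) closed the order. The length was the union of all annotated exons of a gene (5508 bases for NUPR1 and 16507 for VLDLR), and the order depends on it. Neighbours in this order were often closer than their libraries. ATF4 and DDIT4 were neighbours at 196 and 193 CPM per kilobase. The 2 EV libraries of DDIT4 stood at 360.1 and 434 CPM, values not divided by length and so on another scale.

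**Figure D1:**
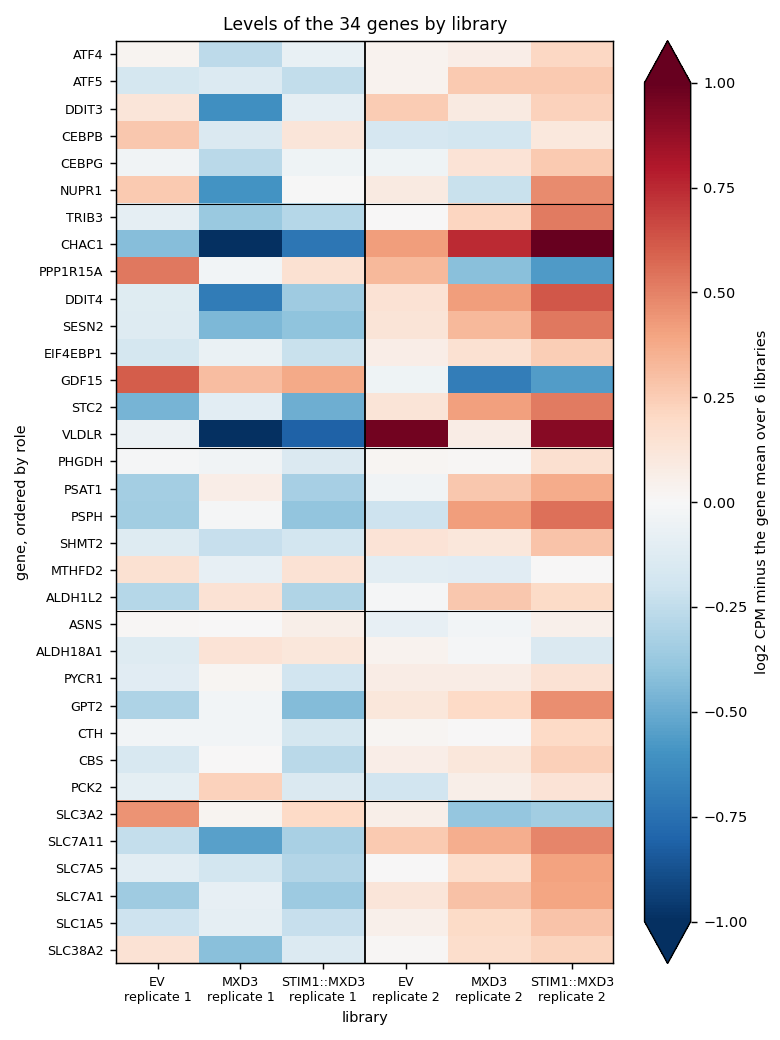
Heat map of the 34 genes (rows, ordered by role) in the 6 libraries (columns, replicate 1 on the left of the line), colored by log2 CPM minus the mean of the gene over the 6 libraries. Most rows are redder in the replicate 2 columns, and STIM1::MXD3 replicate 2 held the highest level for 22 of the 34 genes.

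Without regard to the replicate number, no member passed the test with either construct. In edgeR's quasi-likelihood test with Benjamini-Hochberg adjustment over all genes tested, 0 of 34 members passed an adjusted p of 0.05 for MXD3 against EV, and the same test called 0.00648% of all genes. For STIM1::MXD3 against EV it called 0 of 34 members and again 0.00648% of all genes. For STIM1::MXD3 against MXD3 it called 0 of 34 members and 0% of all genes. Unadjusted p fell below 0.05 for 2 members with MXD3 (NUPR1 and PPP1R15A), for 0 with the fusion and for 1 between the constructs (NUPR1). DESeq2 without the block likewise called 0 members in each comparison. The adjusted p of every member was at least 0.999 in these 3 comparisons, so they are not repeated gene by gene.

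The median log2 fold change of the members was -0.0097 with MXD3, beside 0.0011 for all genes tested, and 16 of 34 were higher. It was 0.084 with STIM1::MXD3, beside 0.0096 for all genes, and 28 of 34 were higher. Between the constructs it was 0.077, with 21 of 34 higher in the fusion, beside 0.0083 for all genes. Leaving out the library STIM1::MXD3 replicate 2 turned the fusion median to -0.18, and leaving out MXD3 replicate 1 turned the MXD3 median to 0.18. The median between the constructs turned to -0.077 without MXD3 replicate 1 and to -0.26 without STIM1::MXD3 replicate 2. Complete separation of the libraries occurred among the members at or below a share close to that of all genes. Both MXD3 libraries lay above both EV libraries for 4 members (PSAT1, PSPH, ALDH1L2 and PCK2; 16.2% of all genes) and below them for 4 (DDIT3, NUPR1, PPP1R15A and SLC3A2; 14.8%). With the fusion, ASNS alone lay above EV in both libraries (12.0% of all genes) and PPP1R15A alone below (10.0%). Both fusion libraries exceeded both MXD3 libraries for CEBPB, NUPR1, MTHFD2 and ASNS (10.9% of all genes), and 0 members showed the opposite (10.2%).

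With the replicate number as a block, 3 of 34 members fell with MXD3, while 0.292% of all genes were called in either direction. They were PPP1R15A, which encodes the phosphatase subunit that reverses eIF2 phosphorylation, GDF15, and SLC3A2, which encodes the heavy chain shared by several amino acid transporters. The same model called 0 members for the fusion against EV (0.0194% of all genes) and 0 for the fusion against MXD3 (0.00648%). Unadjusted p in that model fell below 0.05 for 13 members with MXD3 (2149 of 15431 genes), for 4 with the fusion (1312 genes) and for 4 between the constructs (1001 genes). DESeq2 with the block called 6 members with MXD3 (1.57% of all genes), adding DDIT3 and NUPR1 as lower and ALDH1L2 as higher. It called 3 with the fusion (0.188%), again PPP1R15A, GDF15 and SLC3A2, all lower. Both construct comparisons use the same EV libraries, so their shared direction is not independent.

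**Figure D2:**
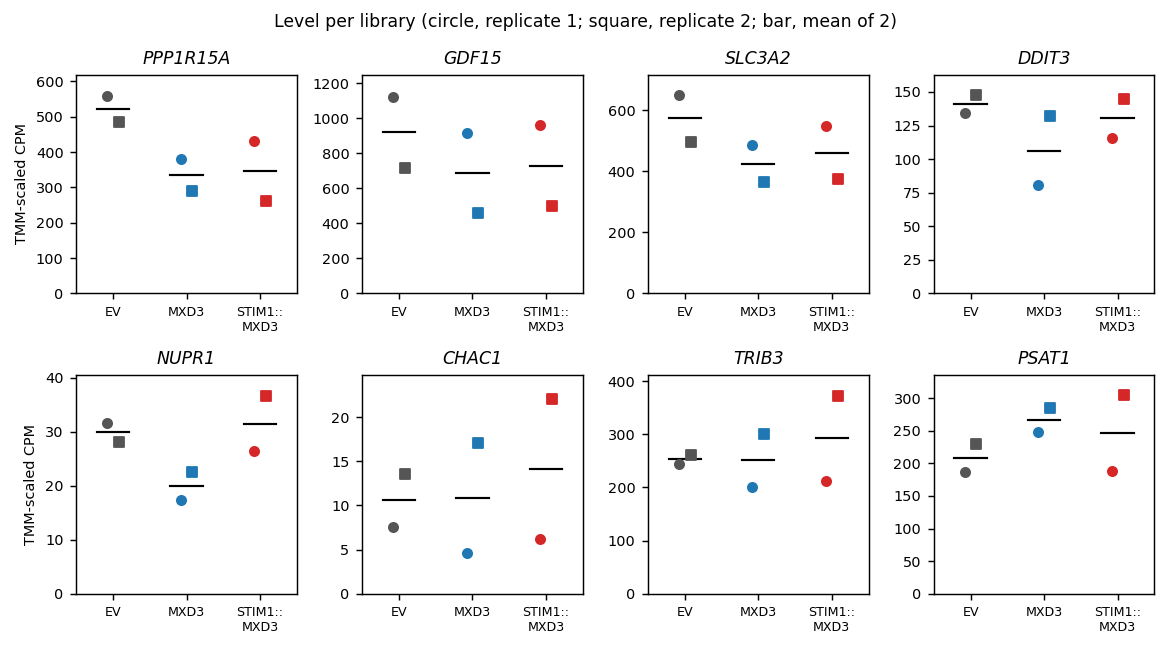
CPM of 8 members in each library, by plasmid group (circle, replicate 1; square, replicate 2; bar, mean of the 2 libraries; each vertical axis starts at 0). PPP1R15A, GDF15 and SLC3A2 were lower in every MXD3 and STIM1::MXD3 library than in the EV library of the same replicate number, and CHAC1 was higher in each replicate 2 library than in each replicate 1 library.

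The replicate number went with more called members than either plasmid did. Between replicate 2 and replicate 1, with the plasmid group in the model, edgeR called 24 of 34 members, beside 29.2% of all genes. Of these, 21 were higher in replicate 2 (13.1% of all genes) and 3 were lower (16.1% of all genes). The members' median log2 fold change was 0.30, beside 0.0062 for all genes. All 3 replicate 2 libraries lay above all 3 replicate 1 libraries for 19 members (18.0% of all genes) and below them for GDF15 alone (20.6%). The called members comprised 4 of 6 transcription factors (all higher), all 9 feedback and stress genes (7 higher and 2 lower), 4 of 6 serine and one-carbon enzymes (all higher), 2 of 7 other amino acid enzymes (both higher) and 5 of 6 transporters (4 higher and 1 lower). By group, the median log2 ratio of replicate 2 over replicate 1 was 0.15 in EV, 0.31 with MXD3 and 0.47 with STIM1::MXD3. A group has a single such pair, so a difference between these 3 medians could not be tested.

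**Figure D3:**
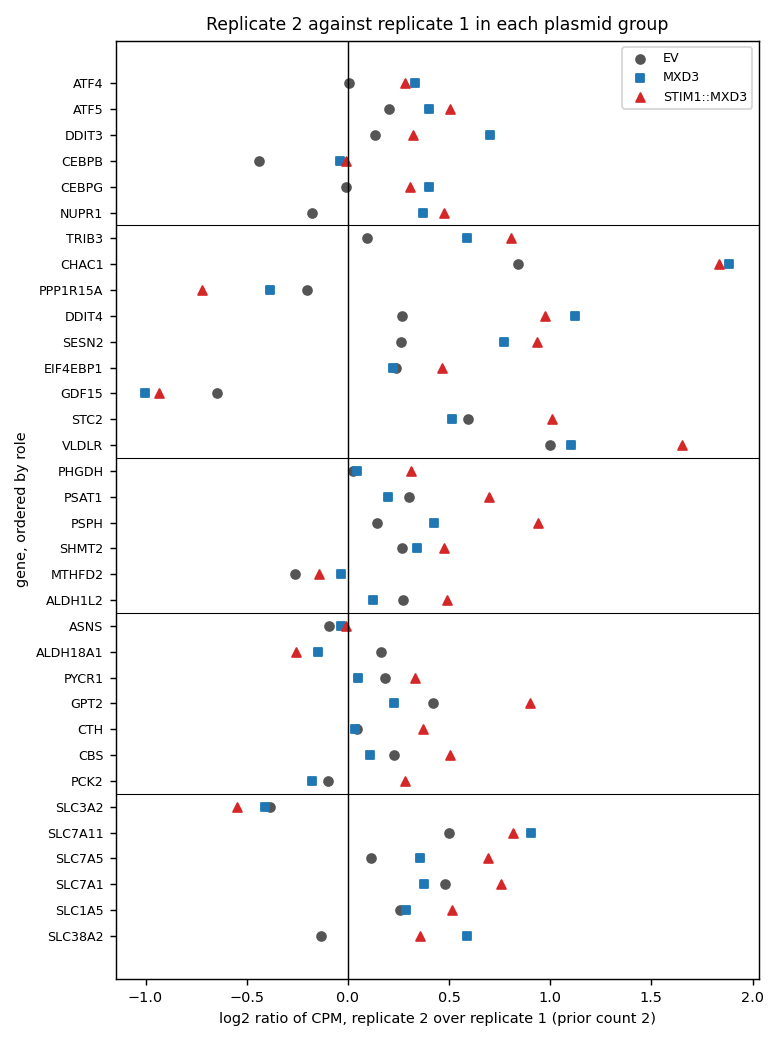
Log2 ratio of replicate 2 over replicate 1 (horizontal axis, CPM with a prior count of 2) for each of the 34 genes (vertical axis, by role) in EV, MXD3 and STIM1::MXD3. CHAC1 reached 1.89 with MXD3 and GDF15 reached -1.001, and the median ratio was 0.15, 0.31 and 0.47 in the 3 groups.

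The sign of the fusion ratios differed between the replicate numbers. Within replicate 1, 31 of 34 members were lower with STIM1::MXD3 than with EV, with a median log2 ratio of -0.10. Within replicate 2, 28 of 34 were higher, with a median of 0.22. Lower in replicate 1 and higher in replicate 2 described 26 members and 22.9% of all genes. For MXD3 the same pattern held for 10 members and 19.2% of all genes, with medians of -0.088 and 0.086. The highest of all 6 levels was in STIM1::MXD3 replicate 2 for 22 members, against 21.8% of all genes. STIM1::MXD3 against MXD3 had medians of 0.041 in replicate 1 and 0.13 in replicate 2, the latter with 30 of 34 members higher. Other measures moved with the replicate number as well. The scaling factors were 0.960 to 1.007 in replicate 1 and 1.016 to 1.031 in replicate 2, the share of even numbers among counts of 1 to 39 was 59.8% to 62.7% and 64.5% to 67.3%, and the summed erythroid markers were 8609 to 9718 CPM and 6943 to 7801 CPM. The mitochondrial share of counts turned within the pairs, at 2.35% and 1.29% in EV, 1.23% and 3.23% with MXD3, and 1.33% and 2.51% with STIM1::MXD3. It was lower with each construct than with EV in replicate 1 and higher in replicate 2. The part of these measures in the members' difference was not tested.

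**Figure D4:**
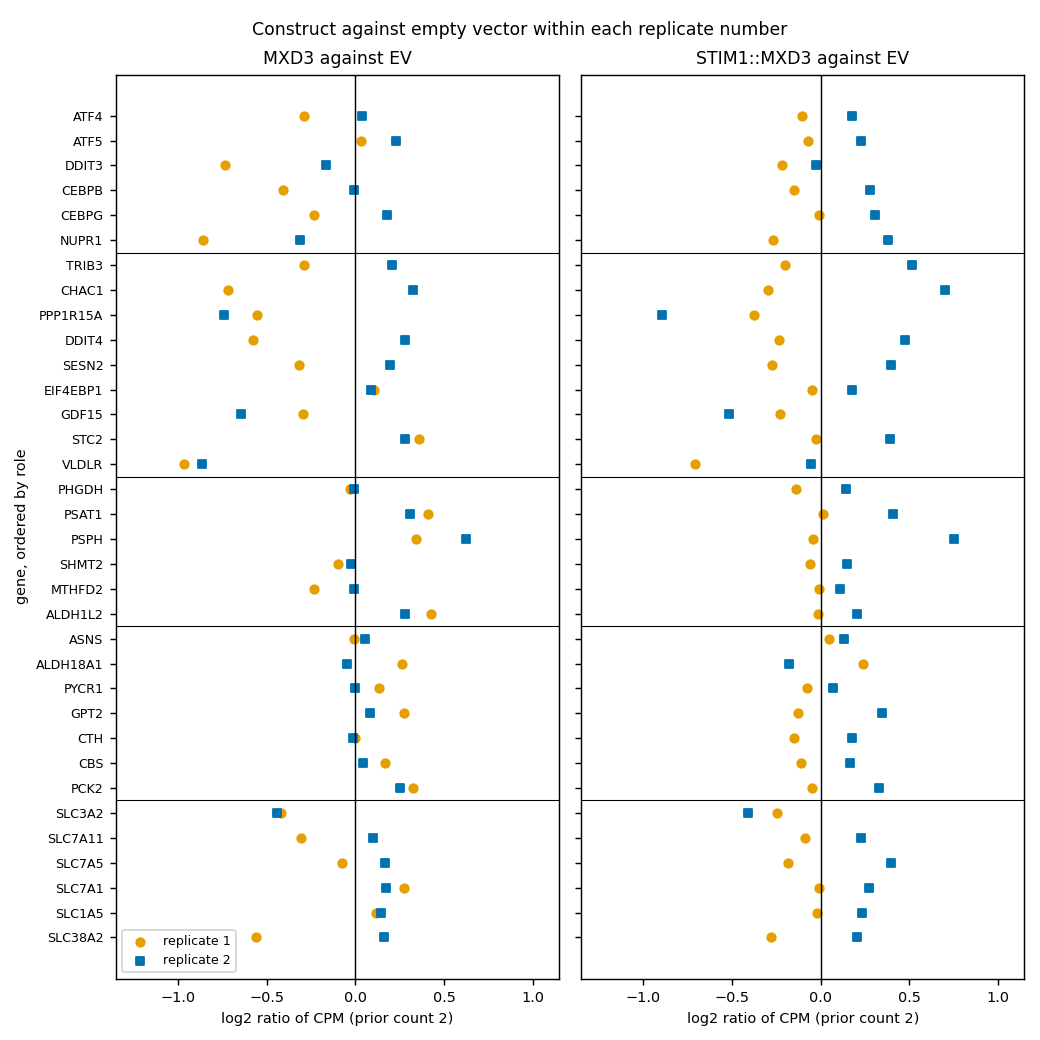
Log2 ratio of each construct over EV (horizontal axes, CPM with a prior count of 2) for the 34 genes (vertical axis, by role) within replicate 1 (circles) and replicate 2 (squares). For STIM1::MXD3, 31 genes lay left of 0 in replicate 1 and 28 lay right of 0 in replicate 2.

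Among the transcription factors, ATF4 (Gene ID 468, chr22:39915700-39918688, plus strand) encodes the central activator of the response. Gene positions are those of hg19 and levels are given for replicate 1 and then replicate 2. The levels of ATF4 were 511 and 513 CPM in EV, 417 and 526 CPM with MXD3, and 476 and 580.1 CPM with STIM1::MXD3. The EV libraries were almost equal, and the construct libraries lay on both sides of them. Its log2 fold change was -0.12 ± 0.16 (SE) with MXD3, 0.044 ± 0.16 with the fusion and 0.16 ± 0.16 between them. Replicate 2 exceeded replicate 1 by 0.21 ± 0.074 (edgeR adjusted p = 0.0454) and the call was lost without any 1 of the 4 construct libraries, at 0.16 to 0.19. DDIT3 (Gene ID 1649, chr12:57910371-57915520, minus strand), the gene of the pro-apoptotic factor CHOP, had 135 and 148 CPM in EV, 80.8 and 132 CPM with MXD3, and 116 and 145 CPM with STIM1::MXD3. MXD3 replicate 1 was the lowest library, and both MXD3 libraries were below both EV libraries. The log2 fold changes were -0.41 ± 0.24, -0.11 ± 0.24 and 0.29 ± 0.24 in the same 3 comparisons. With the block, the MXD3 value had an adjusted p of 0.0985 in edgeR and 0.0244 in DESeq2. DDIT3 was higher in replicate 2 by 0.39 ± 0.089 (edgeR adjusted p = 0.00427), although EV replicate 1 exceeded MXD3 replicate 2, and the call was lost without either MXD3 library, at 0.24.

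ATF5 (Gene ID 22809, chr19:50431959-50437192, plus strand), a close relative of ATF4, was at 691 and 796 CPM in EV, 707 and 934 CPM with MXD3, and 657 and 933 CPM with STIM1::MXD3. All replicate 2 libraries stood above all replicate 1 libraries, by 0.37 ± 0.072 (edgeR adjusted p = 0.00134), and the plasmid groups overlapped. The C/EBP-family partner gene CEBPG (Gene ID 1054, chr19:33864591-33873592, plus strand) was at 122 and 121 CPM in EV, 104 and 138 CPM with MXD3, and 121 and 150.4 CPM with STIM1::MXD3. It was higher in replicate 2 by 0.23 ± 0.08 (edgeR adjusted p = 0.0370), with nearly equal levels in both EV libraries, and the call was lost without any 1 of the 4 construct libraries, at 0.16 to 0.21. CEBPB, another C/EBP-family gene, ranged from 103 to 141 CPM and had log2 fold changes of -0.23 with MXD3 and 0.049 with the fusion. NUPR1 (Gene ID 26471, chr16:28544029-28550329, minus strand), which encodes a small stress-induced chromatin protein, was at 31.7 and 28.0 CPM in EV, 17.4 and 22.6 CPM with MXD3, and 26.3 and 36.6 CPM with STIM1::MXD3. Both MXD3 libraries were the lowest of the 6. The log2 fold change of NUPR1 was -0.58 ± 0.21 with MXD3 (unadjusted p = 0.0292 in edgeR) and 0.65 ± 0.21 for the fusion against MXD3 (unadjusted p = 0.0176). With the block in edgeR, the adjusted p was 0.0873 for the first, which DESeq2 with the block gave as 0.0175, and 0.369 for the second.

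Among the feedback genes, PPP1R15A (Gene ID 23645, chr19:49375469-49379316, plus strand) had 559 and 486 CPM in EV, 380.3 and 291 CPM with MXD3, and 431 and 262 CPM with STIM1::MXD3. Each construct library was below each EV library. The blocked log2 fold change was -0.65 ± 0.10 with MXD3 (edgeR adjusted p = 0.0220) and -0.63 ± 0.10 with the fusion (adjusted p = 0.0514, and 6.34e-05 in DESeq2), and it was 0.022 ± 0.10 between the constructs. Without the block the values were -0.64 ± 0.25 and -0.59 ± 0.25. The gene was also lower in replicate 2, with a log2 fold change of -0.44 ± 0.084 (edgeR adjusted p = 0.00124), opposite to most members. GDF15 (Gene ID 9518, chr19:18485541-18499986, plus strand) was at 1123 and 716 CPM in EV, 915 and 457 CPM with MXD3, and 959 and 501 CPM with STIM1::MXD3. Its replicate 2 libraries were the 3 lowest, with a replicate difference of -0.86 ± 0.076 (edgeR adjusted p = 3.16e-06). EV was the highest group within each replicate number. The blocked fold change was -0.47 ± 0.093 with MXD3 (edgeR adjusted p = 0.0481), against -0.42 ± 0.42 without the block. For the fusion it was -0.38 ± 0.093 (adjusted p = 0.312, and 0.0461 in DESeq2).

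CHAC1 (Gene ID 79094, chr15:41245160-41248710, plus strand), the gene of a glutathione-degrading enzyme and a strongly ATF4-dependent transcript, had the largest replicate difference among the members. Its levels were 7.58 and 13.6 CPM in EV, 4.59 and 17.1 CPM with MXD3, and 6.17 and 22.1 CPM with STIM1::MXD3. Every replicate 2 library exceeded every replicate 1 library, by 1.53 ± 0.18 on the log2 scale (edgeR adjusted p = 2.62e-05). The log2 fold change was 0.028 ± 0.74 with MXD3, 0.42 ± 0.74 with the fusion and 0.39 ± 0.74 between them, with wide errors, and the MXD3 value was -0.19 with the block. TRIB3 (Gene ID 57761, chr20:343479-378203, plus strand), the gene of a pseudokinase that restrains ATF4, was at 245 and 261 CPM in EV, 200.4 and 301 CPM with MXD3, and 213 and 373 CPM with STIM1::MXD3. The fusion held the highest level of TRIB3 in replicate 2 but not in replicate 1. Its fold changes were -0.011 ± 0.29, 0.21 ± 0.29 and 0.22 ± 0.29, and the replicate difference was 0.50 ± 0.10 (edgeR adjusted p = 0.00159, but 0.0837 in DESeq2 with the block).

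DDIT4 (Gene ID 54541, chr10:74033678-74035794, plus strand), which encodes REDD1, an inhibitor of mTORC1, was at 360.1 and 434 CPM in EV, 241 and 526 CPM with MXD3, and 307 and 603 CPM with STIM1::MXD3. The gap between the replicate numbers was wide in both construct groups and narrow in EV, and replicate 2 was higher by 0.79 ± 0.11 (edgeR adjusted p = 1.52e-04). SESN2 (Gene ID 83667, chr1:28586029-28609002, plus strand), the gene of the leucine sensor sestrin 2, had the same ordering of libraries by replicate number, at 109 and 130.1 CPM in EV, 87.3 and 149 CPM with MXD3, and 89.8 and 171 CPM with STIM1::MXD3. The difference was 0.66 ± 0.10 (edgeR adjusted p = 1.95e-04). EIF4EBP1 (Gene ID 1978, chr8:37888052-37917883, plus strand), the gene of a translation repressor, was at 97.1 and 114 CPM in EV, 104 and 122 CPM with MXD3, and 93.8 and 129.7 CPM with STIM1::MXD3, with a difference of 0.31 ± 0.073 (edgeR adjusted p = 0.00476). The secreted glycoprotein gene STC2 (Gene ID 8614, chr5:172741726-172755450, minus strand) was at 32.1 and 48.5 CPM in EV, 41.2 and 58.9 CPM with MXD3, and 31.6 and 63.5 CPM with STIM1::MXD3. STC2 was higher in replicate 2 by 0.71 ± 0.10 (edgeR adjusted p = 8.94e-05) and did not separate the plasmid groups. VLDLR (Gene ID 7436, chr9:2621182-2660056, plus strand) was close to the detection limit, at 0.825 and 1.68 CPM in EV, 0.405 and 0.908 CPM with MXD3, and 0.493 and 1.62 CPM with STIM1::MXD3. Its replicate difference was 1.30 ± 0.34 (edgeR adjusted p = 0.00974), and its fold changes with MXD3 and the fusion, -0.94 ± 0.71 and -0.25 ± 0.69, had wide errors too. Without either fusion library the replicate call of VLDLR was lost, at 1.09 and 1.11. Across DDIT4, SESN2, EIF4EBP1 and STC2, the log2 fold changes lay between -0.049 and 0.31 with MXD3 and between 0.079 and 0.24 with the fusion.

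In the serine and one-carbon group, no fold change against a plasmid was called by edgeR, with or without the block. PHGDH (Gene ID 26227, chr1:120191034-120286841, plus strand), whose product starts serine synthesis from a glycolytic intermediate, had 473 and 483 CPM in EV, 464 and 479.5 CPM with MXD3, and 430.4 and 533 CPM with STIM1::MXD3. The other 5 libraries lay within 430.4 to 483 CPM, below fusion replicate 2. The log2 fold changes were -0.019 ± 0.14 with MXD3, 0.012 ± 0.14 with the fusion, 0.031 ± 0.14 between the constructs and 0.13 ± 0.072 between replicate numbers (edgeR adjusted p = 0.202). PSAT1 (Gene ID 29968, chr9:80912041-80945009, plus strand) encodes the next enzyme of the pathway and was at 186 and 230.0 CPM in EV, 248 and 285 CPM with MXD3, and 188 and 305 CPM with STIM1::MXD3. Both MXD3 libraries exceeded both EV libraries, whereas fusion replicate 1 was close to EV replicate 1. Its fold changes were 0.35 ± 0.24, 0.24 ± 0.24 and -0.11 ± 0.24, and it was higher in replicate 2 by 0.40 ± 0.084 (edgeR adjusted p = 0.00228).

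PSPH (Gene ID 5723, chr7:56078744-56119297, minus strand), the gene of the last enzyme of the pathway, was at 29.7 and 32.8 CPM in EV, 37.6 and 50.5 CPM with MXD3, and 28.8 and 55.4 CPM with STIM1::MXD3. The genome holds a near-identical pseudogene of PSPH, so these counts are less certain. PSPH was higher in replicate 2 by 0.51 ± 0.12 (edgeR adjusted p = 0.00415), a call lost without fusion replicate 1 (0.29). Both MXD3 libraries lay above EV, with a fold change of 0.49 ± 0.30. With the fusion the fold change of PSPH was 0.43 ± 0.30, although fusion replicate 1 lay below both EV libraries. SHMT2 (Gene ID 6472, chr12:57623356-57628718, plus strand), which encodes the mitochondrial enzyme that turns serine into glycine and a one-carbon unit, was at 369 and 445 CPM in EV, 344 and 437 CPM with MXD3, and 355 and 493 CPM with STIM1::MXD3. It was higher in replicate 2 by 0.36 ± 0.068 (edgeR adjusted p = 9.60e-04) and overlapped across plasmids. MTHFD2 (Gene ID 10797, chr2:74413299-74444692, plus strand), the gene of the next mitochondrial folate enzyme, had 516 and 431 CPM in EV, 439.9 and 429 CPM with MXD3, and 513 and 465 CPM with STIM1::MXD3. Its values were -0.12 ± 0.14 with MXD3, 0.047 ± 0.14 with the fusion, 0.17 ± 0.14 between them and -0.15 ± 0.069 between replicate numbers (edgeR adjusted p = 0.124). Unlike SHMT2, it had no called difference. ALDH1L2 (Gene ID 160428, chr12:105413562-105501421, minus strand), a mitochondrial formyltetrahydrofolate dehydrogenase gene, was at 90.0 and 109 CPM in EV, 121 and 132 CPM with MXD3, and 89.1 and 125 CPM with STIM1::MXD3. Its blocked fold change with MXD3 was 0.36 ± 0.095 (adjusted p = 0.130 in edgeR and 0.0479 in DESeq2), and replicate 2 was higher by 0.30 ± 0.077 (edgeR adjusted p = 0.00911), a call lost without fusion replicate 1 (0.20).

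Of the other amino acid enzymes, ASNS (Gene ID 440, chr7:97480989-97501854, minus strand) is the classic ATF4 target, and its promoter letters are given above. Its levels were 880.4 and 825 CPM in EV, 877 and 856 CPM with MXD3, and 909 and 904 CPM with STIM1::MXD3. The libraries spanned only 825 to 909 CPM. Log2 fold changes were 0.023 ± 0.12 with MXD3, 0.088 ± 0.12 with the fusion, 0.065 ± 0.12 between them and -0.046 ± 0.066 between replicate numbers (edgeR adjusted p = 0.644). Of the 4 members with the response element, CHAC1 and SLC7A1 were called higher in replicate 2, SLC3A2 was called lower and ASNS was not called. The median replicate difference was 0.25 for these 4 members and 0.28 for the 22 members with a window but no such element. GPT2 (Gene ID 84706, chr16:46918274-46965201, plus strand), the gene of a mitochondrial alanine aminotransferase, was at 22.8 and 30.5 CPM in EV, 27.6 and 32.3 CPM with MXD3, and 20.8 and 38.9 CPM with STIM1::MXD3, and was higher in replicate 2 by 0.52 ± 0.11 (edgeR adjusted p = 0.00293). CBS (Gene ID 875, chr21:44473301-44497053, minus strand), the first enzyme gene of transsulfuration, was at 398 and 467 CPM in EV, 446 and 481 CPM with MXD3, and 369 and 524 CPM with STIM1::MXD3, with a replicate difference of 0.28 ± 0.077 (edgeR adjusted p = 0.0119), a call lost without either fusion library (0.17 and 0.19). CTH, whose product completes transsulfuration to cysteine, ranged from 76.98 to 99.6 CPM and had a replicate difference of 0.15 ± 0.08 (edgeR adjusted p = 0.171). PCK2, the mitochondrial PEPCK gene, ranged from 85.7 to 115 CPM, with both MXD3 libraries above both EV libraries and a fold change of 0.29 ± 0.14 (unadjusted p = 0.0839 in edgeR). The proline synthesis genes PYCR1 (279 to 352 CPM) and ALDH18A1 (79.9 to 97.1 CPM) had replicate differences of 0.19 and -0.082, neither called. Their fold changes with MXD3 were 0.064 and 0.11, and those with the fusion 0.0037 and 0.033.

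Of the 6 transporter genes, 5 were higher in replicate 2, 4 of them called, and SLC3A2 was called lower. SLC3A2 (Gene ID 6520, chr11:62623476-62656352, plus strand) was at 649 and 496 CPM in EV, 485 and 365 CPM with MXD3, and 546 and 373 CPM with STIM1::MXD3. EV was the highest group within each replicate number, and both MXD3 libraries lay below both EV libraries. The blocked fold change was -0.43 ± 0.082 with MXD3 (edgeR adjusted p = 0.0465) and -0.33 ± 0.082 with the fusion (adjusted p = 0.324, and 0.0461 in DESeq2). It was -0.43 ± 0.24 and -0.32 ± 0.24 without the block, and SLC3A2 was lower in replicate 2, with a log2 fold change of -0.45 ± 0.067 (edgeR adjusted p = 1.93e-04). Its light-chain partners went the other way between replicate numbers. SLC7A11 (Gene ID 23657, chr4:139085251-139163503, minus strand), the cystine importer gene, had 55.1 and 77.9 CPM in EV, 44.5 and 83.5 CPM with MXD3, and 51.8 and 91.3 CPM with STIM1::MXD3. Replicate 2 exceeded replicate 1 throughout, by 0.74 ± 0.085 (edgeR adjusted p = 2.63e-05), while the plasmid fold changes were -0.055 ± 0.37, 0.11 ± 0.37 and 0.16 ± 0.37. SLC7A5 (Gene ID 8140, chr16:87863629-87903113, minus strand), the gene of the leucine transporter LAT1, was at 276 and 299 CPM in EV, 262 and 335 CPM with MXD3, and 243 and 393 CPM with STIM1::MXD3, with a replicate difference of 0.39 ± 0.088 (edgeR adjusted p = 0.00374).

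The cationic amino acid transporter gene SLC7A1 (Gene ID 6541, chr13:30083551-30169825, minus strand) was at 106 and 148 CPM in EV, 128 and 167 CPM with MXD3, and 106 and 179 CPM with STIM1::MXD3. It was higher in replicate 2 by 0.54 ± 0.077 (edgeR adjusted p = 1.40e-04). SLC1A5 (Gene ID 6510, chr19:47278140-47291851, minus strand) was at 532 and 637 CPM in EV, 577 and 704 CPM with MXD3, and 524 and 748 CPM with STIM1::MXD3, and was higher in replicate 2 by 0.35 ± 0.071 (edgeR adjusted p = 0.00170). Neither gene separated the plasmid groups. SLC38A2, the gene of the adaptive neutral amino acid transporter SNAT2, ranged from 244 CPM in MXD3 replicate 1 to 379.9 CPM in fusion replicate 2, with fold changes of -0.17 with MXD3 and -0.027 with the fusion. Of the 3 members with an E-box in the window, ATF4 had a fold change of -0.12 with MXD3, ALDH18A1 of 0.11 and SLC7A5 of 0.055, none called. Their median was 0.055, beside -0.012 for the 23 members with a window but no E-box. With the fusion the medians were 0.044 and 0.088, and all 3 members were higher, as were 17 of the 23 others.

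Other genes of the response were read from 7 lists. In these lists (the eIF2 kinases, eIF2 and eIF2B with PPP1R15B and EIF2A, further ATF4 targets, aminoacyl-tRNA synthetases, one-carbon and glycine genes, the ATF6 and XBP1 branch of the unfolded protein response, the mitochondrial stress relay, and NFE2L2 targets), 0 genes were called for any plasmid comparison by edgeR without the block, and 3 had an unadjusted p below 0.05 with MXD3 and 0 in the other comparisons. The smallest unadjusted p was that of TXNIP with MXD3 (log2 fold change 1.24 ± 0.46, unadjusted p = 0.0306), of FGF21 with the fusion (1.94 ± 1.19, unadjusted p = 0.143) and of EIF2A between the constructs (0.37 ± 0.18, unadjusted p = 0.0852). FGF21 was nearly undetected, at 0.0196 to 0.429 CPM. With the block, TXNIP, which encodes an inhibitor of glucose uptake and thioredoxin, was the single gene of these lists called with MXD3, at 1.11 ± 0.15 (edgeR adjusted p = 0.00684), and DESeq2 with the block called 3 genes of the lists with MXD3. TXNIP was at 40.5 and 51.0 CPM in EV, 63.1 and 153 CPM with MXD3, and 49.3 and 97.7 CPM with STIM1::MXD3.

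Between replicate numbers, where edgeR called 13.1% of all genes higher and 16.1% lower, 10 of 21 further ATF4 targets tested were higher and 3 lower. ATF3, a stress-induced transcription factor gene, was higher by 0.62 (adjusted p = 0.00166), the apoptosis-related gene NIBAN1 by 0.71, the glycine transporter gene SLC6A9 by 0.63 and TXNIP by 0.87. JDP2 (0.52), SLC38A1 (0.28), SLC1A4 (0.31), LAMP3 (0.62), VEGFA (0.42) and BEX2 (0.69) were the others that were higher, and KLHL24 (-0.43), XPOT (-0.25) and DDR2 (-0.43) were lower. Of the 14 upstream genes 0 were higher and 4 were lower, beside 13.1% and 16.1% of all genes. The 4 were the heme-regulated kinase gene EIF2AK1 (-0.45), the endoplasmic reticulum kinase gene EIF2AK3 (-0.28), the amino acid-sensing kinase gene EIF2AK4 (-0.24) and EIF2A (-0.26). EIF2A encodes a separate initiation factor and no subunit of eIF2. Of 12 aminoacyl-tRNA synthetase genes, 0 were called by edgeR (1 at an unadjusted p below 0.05) and 1 by DESeq2 with the block. Of 10 one-carbon and glycine genes tested, MAT2A (0.73) and GCSH (0.47) were higher and MTHFD1L (-0.19) was lower. That was near the 29.2% of all genes called in either direction.

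The parallel stress branches stand beside the same shares of all genes, 13.1% called higher and 16.1% called lower. In the ATF6 and XBP1 branch, 6 of 18 genes were higher in replicate 2 (SEC61B 0.51, EDEM1 0.41, ERN1 0.40, SEL1L 0.32, HYOU1 0.31 and HERPUD1 0.25) and 4 were lower (DNAJC3 -0.35, HSPA5 -0.33, XBP1 -0.29 and PDIA4 -0.18). HSPA5, the gene of the main endoplasmic reticulum chaperone, was at 2559 and 2246 CPM in EV, 1953 and 1618 CPM with MXD3, and 2421 and 1667 CPM with STIM1::MXD3. Of the 10 genes of the mitochondrial relay, HSPE1 was higher (0.44) and DELE1 lower (-0.29), below the share of all genes in each direction. Among the NFE2L2 targets, SLC48A1 was higher (0.46) and ME1 (-0.78), GCLM (-0.48), NQO1 (-0.37) and NFE2L2 itself (-0.23) were lower. SLC7A11 is also known as an NFE2L2 target and was higher in replicate 2, opposite to these oxidative stress genes. Every value in this and the preceding paragraph that is not otherwise marked is a log2 fold change of replicate 2 against replicate 1.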

How the data were processed

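The 6 K562 libraries (2 each of EV, MXD3 and STIM1::MXD3) were grouped by their labels. The authors aligned reads to hg19 with HISAT2 2.2.1 and deposited raw counts per NCBI Gene ID from featureCounts 2.0.1, per the submitters' processing notes. Strand and the counting of read pairs are not given in the sources used here, so overlapping genes cannot be told apart. Of 25702 identifiers, 92.2% matched a symbol, and unmatched rows held 0.225% to 0.276% of counts. Counts (53048343 to 63835779 per library) were filtered with filterByExpr (15431 genes), scaled by TMM and tested two-sided in edgeR 4.0.16 (quasi-likelihood, all 6 libraries, adjusted p 0.05), and DESeq2 1.42.0 was an alternative. The scripts were tested on simulated data. The replicate contrast adds the replicate number to the groups. Log2 ratios of pairs use a prior count of 2.

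The 2 libraries of a group come from independent transfections, per the study's supplement. The labels do not say what the replicate number marks. Same-numbered libraries deviated together from their group means (r = 0.27, 0.36 and 0.45 across genes, for the 3 pairs of groups). Across the 10250 genes with a mean of at least 5 CPM, r was 0.62, 0.71 and 0.79 for the same pairs. The pairing is inferred from these correlations, and blocked values are given where they change a call. The members and gene lists were chosen with earlier results of these data known. Library values and tests of all comparisons are given for ATF4, DDIT3, ASNS, TRIB3, CHAC1, PHGDH, PSAT1, MTHFD2 and SLC7A11. For PPP1R15A, GDF15 and SLC3A2, called with MXD3 in the blocked fit, library values and the blocked tests against EV are given. The other members called by edgeR between replicate numbers have library values and that test, and only some have plasmid fold changes. In the other lists, genes called are named, or else the gene with the smallest p. A result of these lists is not reported here.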

Additional observations from a re-analysis of the deposited data

How the results depend on the processing

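Without the replicate block, the count of members called for each plasmid comparison was 0 in edgeR, in DESeq2 and under every alternative scaling, filter and left-out library. With the replicate number as a block, edgeR called 3 members for MXD3 against EV, DESeq2 called 6, and DESeq2 called 3 for the fusion against EV. For the members the blocked fit changed no other call in edgeR, and over all genes it called 45 against 1 for MXD3, 3 against 1 for the fusion and 1 against 0 between the constructs. Between replicate numbers, the count of 24 members ranged from 18 to 26 over the left-out libraries, 18 without STIM1::MXD3 replicate 1. The median log2 fold change of the members ranged, over the left-out libraries, from -0.18 to 0.29 for the fusion against EV, from -0.10 to 0.18 for MXD3 against EV and from -0.26 to 0.27 for the fusion against MXD3. Signs of single genes turned with 1 library left out: for the fusion against EV ATF4 -0.11 to 0.18, CHAC1 -0.79 to 1.06, DDIT3 -0.29 to 0.040, GDF15 -0.87 to 0.053, MTHFD2 -0.076 to 0.18, PHGDH -0.16 to 0.16, PSAT1 -0.15 to 0.55, SLC7A11 -0.37 to 0.46 and TRIB3 -0.26 to 0.56; for MXD3 against EV ASNS -0.021 to 0.073, ATF4 -0.30 to 0.052, CHAC1 -1.22 to 0.70, MTHFD2 -0.25 to 0.014, PHGDH -0.052 to 0.018, SLC7A11 -0.59 to 0.34 and TRIB3 -0.34 to 0.27; for the fusion against MXD3 ATF4 -0.0074 to 0.35, CHAC1 -0.82 to 1.64, DDIT3 -0.027 to 0.70, GDF15 -0.45 to 0.66, PHGDH -0.14 to 0.18, PPP1R15A -0.36 to 0.35, PSAT1 -0.51 to 0.20, SLC3A2 -0.19 to 0.36, SLC7A11 -0.32 to 0.69 and TRIB3 -0.25 to 0.57. None of these values was called. Other sign changes concerned small values: PHGDH was -0.0019 for the fusion against EV under DESeq2 with the replicate block, TRIB3 was 0.033 and PHGDH 0.024 for MXD3 against EV with library totals only, CHAC1 was -0.19 (edgeR) and -0.21 (DESeq2) for MXD3 against EV with the replicate block, and ASNS was 0.016 between replicate numbers with upper-quartile factors and 0.025 with library totals only. The cause was not tested. With 2 libraries a group, the fit without the block separated no member's change from the spread between replicate numbers.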
